A study of Mus musculus with 14 samples.

Results

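Smooth muscle contractile genes and the oxytocin receptor gene were followed through sorted cells of the mouse mammary gland. The 10 genes are Acta2, Actg2, Cnn1, Tagln, Myl9, Mylk, Myh11, Synm, Des and Oxtr. Their probes were found by the gene name in the scanner files, with the older symbol Dmn read as Synm. They were 19 of the 41174 probes on the array, and 18 of the 19 were well above background on every array of at least 1 replicated group. All 10 genes were among the 23647 genes tested, each through its brightest probe.

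The samples were 14 2-colour arrays of RNA from sorted cells, all of the FVB strain. Pregnant wild-type FVB/N-J mice gave P4, P5 and P6 cells, with 2 arrays each, and virgin wild-type mice gave the same 3 populations, with 2 arrays each. P4 is labelled CD24+CD29hi and enriched for mammary stem cells, P5 carries the same surface label but is called enriched for luminal progenitors, and P6 is CD24lo and called differentiated. The remaining 2 arrays, 1 each, were of GFPhi (stem cell enriched) and GFPlo (stem cell depleted) cells, lineage-negative cells of virgin FVB/N-Luciferase transgenic mice of line L2G85. The labels name no promoter for the GFP, no age, no stage of pregnancy and no animal behind a replicate. Each p-value weighs a difference against the spread between arrays within groups, and that spread may be technical variation alone. Every array compared its cells, labelled with Cy5, with a commercial pool of RNA from mouse cell lines, labelled with Cy3. Each level below is the log2 ratio of Cy5 over Cy3 of 1 probe, and each difference is a difference between such ratios. Levels of different probes are therefore not compared with each other.

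The mammary duct has an inner luminal layer, which makes milk, and an outer basal layer of myoepithelial cells, which are epithelial cells built to contract. Oxytocin released at suckling binds its receptor on myoepithelial cells, raises calcium through Gq and phospholipase C, and lets calmodulin activate myosin light chain kinase. Phosphorylated myosin then pulls on smooth muscle actin, the cell shortens and milk is ejected. The same proteins are made by the smooth muscle of vessels and by pericytes, which a sort on CD24 and CD29 alone need not remove. In bulk RNA of this kind, fewer cells of a type and less RNA per cell cannot be told apart.

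The letters of 6 probes are given, so that the transcript stretches behind some of the values can be seen. The Myh11 and Des probes are those behind every value of these genes below. The others are not the brightest of their genes. Values of single probes are given below for a further Mylk probe and for the Tagln probe that was never saturated. They are also given for the Oxtr probe with the smaller error in the comparison of pregnant with virgin P4 cells. For the further Acta2 probe shown here no value of its own is given. It appears only in the plot of each probe on the pregnant P4 arrays minus the virgin mean. The Acta2 values given below for single probes belong to other probes of that gene. The positions are those of the file headers' mouse build mm7, and all letters are in lower case because no stretch within a probe is singled out. The Myh11 probe spans 2925 bases of genome at chr16:13741638-13744562 (minus strand), the Des probe 226 bases at chr1:75593023-75593248 (plus strand) and the Acta2 probe 3255 bases at chr19:33949738-33952992 (minus strand), more than the 60 bases of each probe, as for probes that cross an exon junction. The Tagln probe lies at chr9:45888956-45889015 (minus strand), the Mylk probe at chr16:34669844-34669903 (plus strand) and the Oxtr probe at chr6:112649929-112649988 (minus strand).
Myh11 probe: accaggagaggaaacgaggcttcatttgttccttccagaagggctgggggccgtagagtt
Des probe: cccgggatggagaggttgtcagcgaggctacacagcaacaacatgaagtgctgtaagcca
Acta2 probe: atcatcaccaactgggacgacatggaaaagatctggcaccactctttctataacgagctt
Tagln probe: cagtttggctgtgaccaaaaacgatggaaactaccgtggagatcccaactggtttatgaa
Mylk probe: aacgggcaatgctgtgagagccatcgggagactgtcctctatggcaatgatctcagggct
Oxtr probe: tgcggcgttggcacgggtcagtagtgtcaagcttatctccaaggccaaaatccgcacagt

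Serum response factor switches on many smooth muscle genes by binding the CArG box, a motif of 10 bases that opens with CC and ends with GG around a core of A and T. Promoters, 250 bases before to 50 bases after the gene's start, were given by RefSeq on GRCm38.p6 for 7 of the 10 genes (not Actg2, Tagln or Myh11). The motif reads the same on both strands. An exact match stood in the promoter of 1 of these 7 genes, against 1.63% of 32851 promoters in the table. A match with at most 1 mismatch stood in 3 of the 7 (Acta2, Myl9 and Synm), against 21.1% of those promoters. These 3 are shown with their matches in capitals, and the Oxtr promoter, which held no such letters in this window, is shown beside them.
Acta2, chr19:34255324-34255623, minus strand: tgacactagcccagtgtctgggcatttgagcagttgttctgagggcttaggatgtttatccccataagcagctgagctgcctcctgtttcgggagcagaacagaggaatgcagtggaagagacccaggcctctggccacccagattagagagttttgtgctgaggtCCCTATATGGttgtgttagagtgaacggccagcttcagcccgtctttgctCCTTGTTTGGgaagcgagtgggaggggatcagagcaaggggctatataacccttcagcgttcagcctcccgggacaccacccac
Myl9, chr2:156775214-156775513, plus strand: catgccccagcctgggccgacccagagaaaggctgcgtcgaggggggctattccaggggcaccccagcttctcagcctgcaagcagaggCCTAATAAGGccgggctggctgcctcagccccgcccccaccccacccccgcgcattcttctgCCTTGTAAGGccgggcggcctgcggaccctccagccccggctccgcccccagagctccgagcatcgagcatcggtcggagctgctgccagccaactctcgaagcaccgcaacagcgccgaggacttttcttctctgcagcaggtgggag
Synm, chr7:67759693-67759992, minus strand: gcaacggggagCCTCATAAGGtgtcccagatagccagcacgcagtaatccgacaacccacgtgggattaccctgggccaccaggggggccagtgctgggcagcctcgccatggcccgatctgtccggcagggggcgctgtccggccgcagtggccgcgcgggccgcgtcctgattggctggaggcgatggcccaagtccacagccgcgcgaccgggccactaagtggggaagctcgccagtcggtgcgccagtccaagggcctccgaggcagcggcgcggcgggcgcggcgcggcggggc
Oxtr, chr6:112489776-112490075, minus strand: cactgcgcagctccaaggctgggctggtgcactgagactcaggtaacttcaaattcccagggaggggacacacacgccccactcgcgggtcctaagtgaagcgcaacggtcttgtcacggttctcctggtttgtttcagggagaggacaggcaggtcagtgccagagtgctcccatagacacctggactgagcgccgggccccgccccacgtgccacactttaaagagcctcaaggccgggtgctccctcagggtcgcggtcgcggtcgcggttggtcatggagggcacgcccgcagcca
The exact match was CCTAATAAGG of Myl9, whose first base lay 161 bases before the start, and a second one there, CCTTGTAAGG at 99 bases, had 1 mismatch. Both matches of Acta2, CCCTATATGG at 84 bases and CCTTGTTTGG at 34 bases, had 1 mismatch, as did CCTCATAAGG at 239 bases before the start of Synm. The promoters of Cnn1, Mylk and Des held none in this window.

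Median Cy5 intensity per array ran from 70.92 to 195.9 against a median local background of 32 to 34.5 and 66.44% to 86.69% of the array's probes exceeded it clearly by the scanner's flag. One array has to be set apart before the results. Pregnant P4 replicate 1 was scanned without the extended dynamic range, with a Cy5 ceiling of 64390, and the probes used for 7 of the 10 genes were saturated there (Acta2, Actg2, Cnn1, Tagln, Myl9, Mylk and Myh11). On pregnant P4 replicate 2, the Acta2 probe was saturated on 2 of its 10 spots, and no other probe of the 10 genes was saturated on any other array. For the 7 genes the log2 ratio of pregnant P4 replicate 1 is therefore a lower bound. It lay below that of replicate 2 by 1.09 to 4.07 on the log2 scale (median 2.97), against 0.02 to 1.49 for the other 3 genes and a median of 0.06 over all genes. Both pregnant P4 arrays are given in full below, and results are repeated without replicate 1 where it decides them. The replicated groups share 1 estimate of the spread per gene. The gap between the 2 pregnant P4 arrays therefore also enters the SE of comparisons without pregnant P4 cells. A fit that leaves out 1 array of a group has a single array on that side. That group is assumed to vary like the others, so the SE and p of the fit hold no spread of it. Pregnant P5 and P6 replicate 1 shared slide 3 and scan 3 with pregnant P4 replicate 1, also without the extended range. They had 111 and 199 saturated Cy5 spots over all probes, against its 236. No virgin array was in scan 3. On the replicate 1 arrays, pregnancy therefore cannot be told apart from slide, scan and range.

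Virgin P4 cells stood far above virgin P5 cells in 9 of the 10 genes, and Des was the exception. All 9 rose in P4 (limma across all genes, Benjamini-Hochberg adjusted p under 0.05), where 11.4% of all genes were called in either direction and 6.56% were higher in P4. The median difference over the 10 genes was 5.25 on the log2 scale, against 0.03 over all genes tested. No virgin P4 array overlapped a virgin P5 array in any of the 10 genes, which is true of 55.1% of all genes. The Cy3 reference intensity of Myh11, Cnn1 and Tagln also differed between virgin P4 and P5 arrays (values below), and their ratios include this. Within slide 1 alone the median difference was 5.26 and within slide 2 alone it was 5.22, with 9 of 10 genes positive on each. The SE of these genes also holds the spread of the other groups. For Acta2 the standard deviation was 2.88 in pregnant P4 cells, with the saturated array, against 0.21 in virgin P4 and 0.07 in virgin P5 cells. Leaving out single arrays cost some calls: Acta2 lost its call without any 1 of the 4 arrays compared, Cnn1 without virgin P4 replicate 1 or virgin P5 replicate 2, and Oxtr without virgin P4 replicate 2 or virgin P5 replicate 1.

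The smooth muscle actins are the filaments on which myosin pulls. Acta2, smooth muscle alpha-actin and a common marker of myoepithelial cells, had log2 ratios of 4.41 and 4.11 in virgin P4 cells, against -1.46 and -1.55 in virgin P5 cells and -0.43 and 0.64 in virgin P6 cells. The 2 P4 arrays lay close together and far above all others of the virgin wild-type mice. The difference between P4 and P5 was 5.76 ± 1.07 (SE, adjusted p = 0.00966 by limma), a 54.3-fold difference. Actg2, the gamma-actin of enteric smooth muscle, had log2 ratios of 2.63 and 2.54 in virgin P4 cells, against -0.40 and -0.41 in virgin P5 cells and -0.75 and 0.51 in virgin P6 cells. Again both P4 arrays stood above the rest, and Actg2 was 2.99 ± 0.44 higher in P4 than in P5 (adjusted p = 0.00292).

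Cnn1 (calponin) and Tagln (SM22-alpha) bind smooth muscle actin filaments. Tagln had log2 ratios of 5.32 and 5.27 in virgin P4 cells, against -1.17 and -1.01 in virgin P5 cells and 0.51 and 1.17 in virgin P6 cells. The 3 populations did not overlap, and P4 exceeded P5 by 6.39 ± 0.86 (adjusted p = 0.00191). Cnn1 had log2 ratios of 7.47 and 6.93 in virgin P4 cells, against 1.82 and 0.77 in virgin P5 cells and 2.56 and 2.12 in virgin P6 cells. Its P5 and P6 arrays lay close together, and it was 5.91 ± 1.06 higher in P4 than in P5 (adjusted p = 0.00824).

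The myosin motor of smooth muscle has Myh11 as its heavy chain and Myl9 as its regulatory light chain, which the kinase encoded by Mylk phosphorylates. Myl9 had log2 ratios of 4.78 and 4.46 in virgin P4 cells, against -1.46 and -2.27 in virgin P5 cells and 1.84 and 2.15 in virgin P6 cells. P5 was the lowest population in both replicates, and P4 exceeded it by 6.49 ± 0.83 (adjusted p = 0.0015), the widest gap among the 10 genes at 90.1-fold. Mylk had log2 ratios of 4.98 and 4.38 in virgin P4 cells, against -0.64 and -1.41 in virgin P5 cells and 1.30 and 2.05 in virgin P6 cells, and was 5.70 ± 0.79 higher in P4 than in P5 (adjusted p = 0.00218). Myh11 had log2 ratios of 6.40 and 6.02 in virgin P4 cells, against 1.50 and 1.32 in virgin P5 cells and 3.20 and 4.70 in virgin P6 cells, and was 4.79 ± 0.81 higher in P4 than in P5 (adjusted p = 0.00607). All 3 genes shared the order P4, P6, P5, with no overlap between neighbours. One further Mylk probe stayed between 66.8 and 287.4 in Cy5 intensity on all 14 arrays and did not follow the other 2. The probes of Mylk therefore disagree, and the values here are those of the brightest.

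Intermediate filaments hold the contractile apparatus together. Synm (synemin) had log2 ratios of 6.08 and 5.18 in virgin P4 cells, against 1.38 and 0.41 in virgin P5 cells and 3.05 and 1.96 in virgin P6 cells, and was 4.74 ± 0.61 higher in P4 than in P5 (adjusted p = 0.0015). Des (desmin), the intermediate filament protein of muscle, did not share the pattern. Its log2 ratios were -0.81 and -0.75 in virgin P4 cells, -0.66 and -0.44 in virgin P5 cells and -0.81 and 0.53 in virgin P6 cells. P4 minus P5 was -0.23 ± 0.44 (adjusted p = 0.903 by limma). Its only probe was dim, at 58.35 to 432.2 in Cy5 intensity over the 14 arrays, against median local backgrounds of 32 to 34.5. It was flagged well above background on all 14, but its small differences rest on low signal.

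Oxtr, the Gq-coupled receptor through which oxytocin starts contraction, had log2 ratios of 3.08 and 3.69 in virgin P4 cells, against 1.01 and 1.45 in virgin P5 cells and 0.18 and 0.42 in virgin P6 cells. The 3 populations did not overlap, and here P6 was the lowest. Oxtr was 2.16 ± 0.36 higher in P4 than in P5 (4.45-fold, adjusted p = 0.00594) and 3.09 ± 0.36 higher in P4 than in P6 (adjusted p = 0.000889). Its signal was weak outside P4. Cy5 intensity was 535.8 and 961.3 in virgin P4 cells, 134 and 180.4 in virgin P5 cells and 47.16 and 76.3 in virgin P6 cells, and the probe used was not well above background on virgin P6 replicate 1, where the other Oxtr probe was. In the Cy3 reference, Oxtr was well above background on only 5 of the 14 arrays. With the scanner's own log ratio, which subtracts background without an offset, Oxtr in virgin P4 minus P5 fell to 0.71 (adjusted p = 0.777), and in P4 minus P6 it was 2.88 (adjusted p = 0.063).

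**Figure D1:**
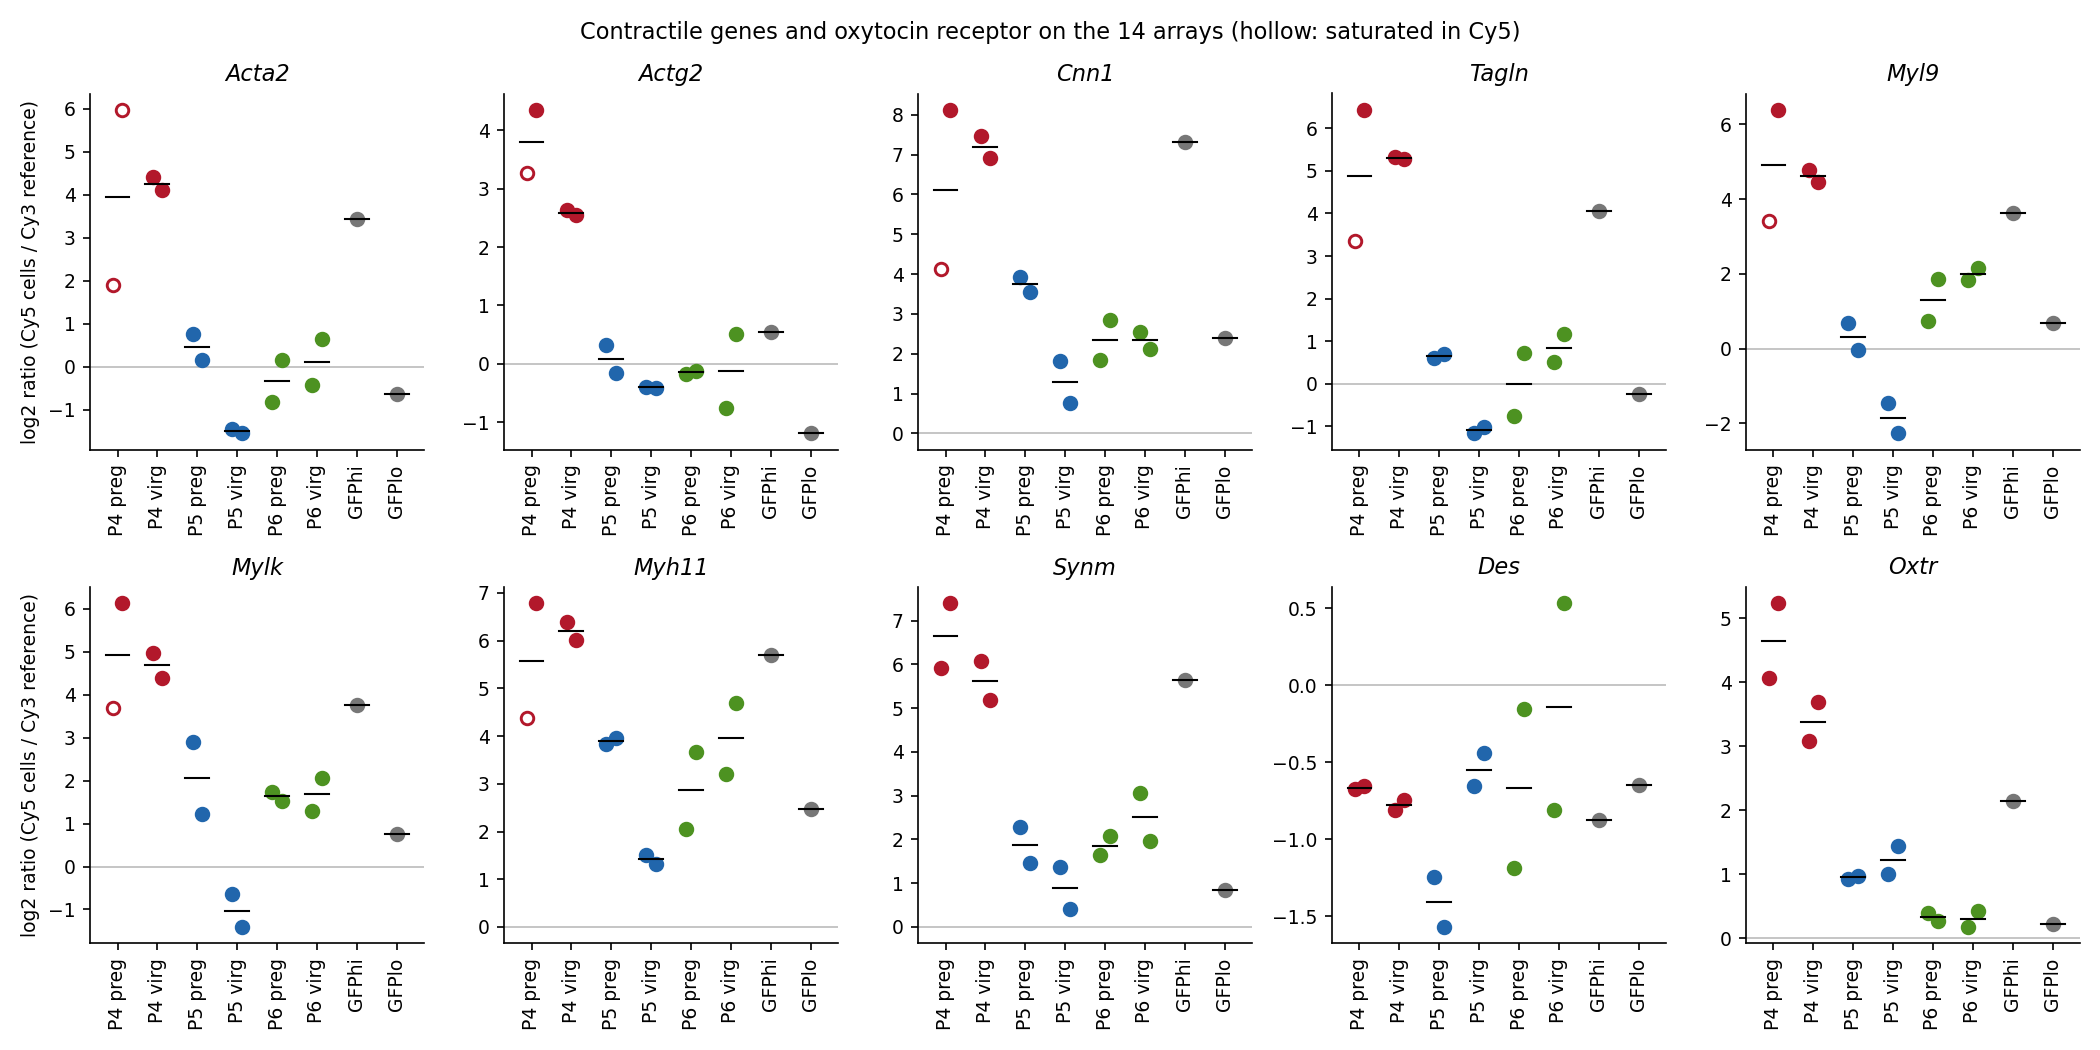
Log2 ratio (sorted cells over reference RNA) of each of the 10 genes on every array, by group. P4 and GFPhi points lie above the others for 8 genes, the lower pregnant P4 point of Myh11 (4.38) lies below 1 virgin P6 point (4.70), and Des shows no such gap. In pregnant P4 cells the points of most genes lie apart, the lower one saturated for 7 genes.

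Against virgin P6 cells, which are CD24lo, 7 of the 10 genes rose in virgin P4 cells by limma (10.3% of all genes called, 4.88% higher), and 9 of the 10 had separate arrays, as did 50.5% of all genes. The 7 were Acta2 (4.15 ± 1.07, adjusted p = 0.0439), Actg2 (2.71 ± 0.44, adjusted p = 0.00475), Cnn1 (4.86 ± 1.06, adjusted p = 0.0214), Tagln (4.46 ± 0.86, adjusted p = 0.0118), Mylk (3.0 ± 0.79, adjusted p = 0.0471), Synm (3.13 ± 0.61, adjusted p = 0.0123) and Oxtr. Myl9 (2.63 ± 0.83, adjusted p = 0.0964) and Myh11 (2.26 ± 0.81, adjusted p = 0.145) were positive on both slides but not called, and Des was -0.64 ± 0.44 (adjusted p = 0.553). The count fell to 2 without virgin P4 replicate 1 and to 3 without virgin P4 replicate 2, virgin P6 replicate 1 or virgin P6 replicate 2. Actg2 and Oxtr were called in each of the 12 fits that left out 1 array. With arrays centred on their medians in place of loess the count was 4.

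P5 and P6 are both depleted populations. In virgin cells, Myl9 fell by 3.87 ± 0.83 in P5 relative to P6 on the log2 scale (adjusted p = 0.0133), and it was the 1 gene of the 10 called, where 16.1% of all genes were called and 8.82% were lower in P5, a share near that of the members. Mylk (-2.70 ± 0.79, adjusted p = 0.0516) and Myh11 (-2.53 ± 0.81, adjusted p = 0.0738) were just short of the threshold. Oxtr had the opposite sign, 0.93 ± 0.36 in P5 minus P6 (adjusted p = 0.146). When arrays were blocked by replicate number within each condition, 6 of the 10 genes were called, where 29% of all genes were, namely Myl9, Mylk, Myh11, Tagln and Synm, all lower in P5, and Oxtr, higher in P5. The call on Myl9 was lost without virgin P5 replicate 2 or either virgin P6 array, and 6 genes were called when either pregnant P4 array was left out, at 16.1% of all genes. In pregnant cells none of the 10 was called between P5 and P6 by limma, where 26.9% of all genes were called. An unadjusted p under 0.05 was found for 0 of the 10 and for 37.3% of all genes.

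In pregnant mice P4 cells again stood above P5 cells. Of the 10 genes, 7 rose (limma, where 22.6% of all genes were called and 11.7% were higher in P4), with a median difference of 3.58 over the 10 genes and -0.05 over all genes. No pregnant P4 array overlapped a pregnant P5 array in any of the 10 genes, true of 57.7% of all genes. Actg2 had log2 ratios of at least 3.26 on the saturated array and 4.36 on the other in pregnant P4 cells, against 0.33 and -0.15 in pregnant P5 cells, a difference of 3.72 ± 0.44 (adjusted p = 0.000621). Synm, unsaturated throughout, had log2 ratios of 5.91 and 7.40 in pregnant P4 cells, against 2.28 and 1.46 in pregnant P5 cells, a difference of 4.78 ± 0.61 (adjusted p = 0.000873). The other called genes were Tagln (4.25 ± 0.86, adjusted p = 0.00853), Myl9 (4.59 ± 0.83, adjusted p = 0.00513), Mylk (2.86 ± 0.79, adjusted p = 0.0324), Acta2 (3.47 ± 1.07, adjusted p = 0.0497) and Oxtr. Acta2 lay at the threshold and was lost in all but 1 of the 12 fits that left out an array. Its call was kept without pregnant P4 replicate 1, where its difference was 5.51 ± 0.52 (adjusted p = 0.000857) with 1 pregnant P4 array left, itself saturated on 2 of the 10 Acta2 spots. Mylk lost its call without either virgin P4 array, pregnant P4 replicate 2 or pregnant P5 replicate 2.

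Cnn1 (2.38 ± 1.06, adjusted p = 0.154) and Myh11 (1.68 ± 0.81, adjusted p = 0.186) were not called between pregnant P4 and P5. Both were saturated on pregnant P4 replicate 1, with Cnn1 log2 ratios of at least 4.12 there and 8.13 on replicate 2, and Myh11 at least 4.38 and 6.78. Without that array, with 1 pregnant P4 array left and the spread taken from the other groups, Cnn1 was 4.39 ± 0.54 higher (adjusted p = 0.00216) and Myh11 2.89 ± 0.73 higher (adjusted p = 0.0379), and 9 of the 10 genes were called, where 14.3% of all genes were. The median difference was 1.93 within scan 3, which held the saturated array, and 4.75 within scan 2.

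Against pregnant P6 cells 7 genes rose in pregnant P4 cells, again without Cnn1, Myh11 and Des (limma, 12.1% of all genes called, 6.2% higher), with a median of 3.86 over the 10 genes, and 9 of the 10 had separate arrays, as did 41.3% of all genes. Oxtr differed by 4.32 ± 0.36 (adjusted p = 0.000124), although it was well above background on only 1 of the 2 pregnant P6 arrays, Actg2 by 3.96 ± 0.44 (adjusted p = 0.000548) and Synm by 4.80 ± 0.61 (adjusted p = 0.00112). Cnn1 was 3.77 ± 1.06 (adjusted p = 0.0557) and Myh11 2.72 ± 0.81 (adjusted p = 0.0693), and Des was 0.00 ± 0.44 (adjusted p = 0.998). Without pregnant P4 replicate 1, which again leaves 1 array to that group, Cnn1 (5.78, adjusted p = 0.000763) and Myh11 (3.92, adjusted p = 0.0147) were called as well. The count fell to 4 without pregnant P6 replicate 1, with Acta2, Myl9 and Mylk lost. Acta2 was called in 4 of the 12 fits that left out an array and Mylk in 9.

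**Figure D2:**
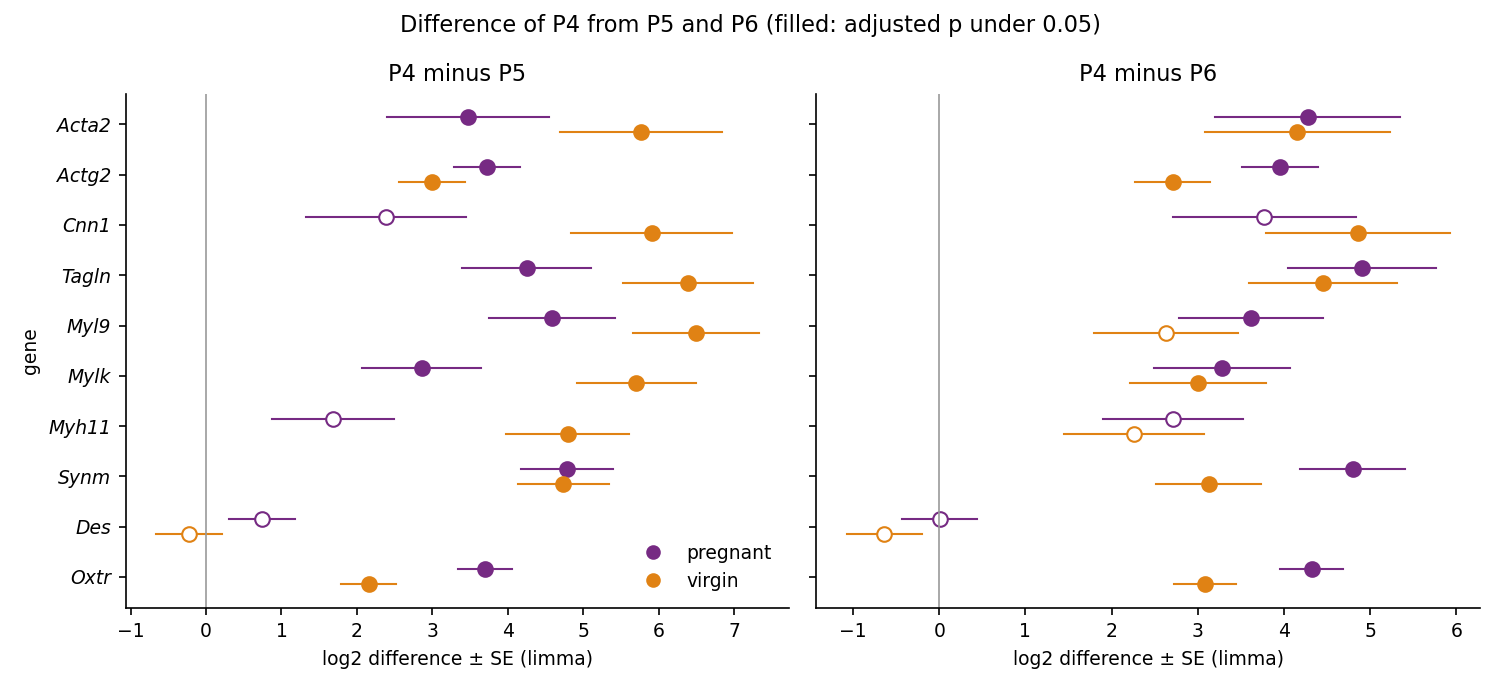
Log2 difference of P4 from P5 and from P6 for each gene, in pregnant and in virgin mice, with standard errors. Every gene but Des lies to the positive side in all 4 comparisons, from 1.68 for Myh11 (pregnant, against P5) to 6.49 for Myl9 (virgin, against P5).

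Oxtr had the lowest adjusted p of the 10 genes in both pregnant comparisons and in the virgin comparison with P6. Its log2 ratios were 4.06 and 5.24 in pregnant P4 cells, 3.08 and 3.69 in virgin P4 cells, 0.93 and 0.97 in pregnant P5 cells, 1.01 and 1.45 in virgin P5 cells, 0.39 and 0.27 in pregnant P6 cells and 0.18 and 0.42 in virgin P6 cells. P4 was highest in both states, P5 was intermediate, and the levels of pregnant and virgin cells overlapped in P6 but not in P4 or P5. Pregnant P4 cells exceeded pregnant P5 cells by 3.70 ± 0.36 (13.0-fold, adjusted p = 0.00026). Cy5 intensity was 8660 and 4480 in pregnant P4 cells, against 535.8 and 961.3 in virgin P4 cells, while the array medians were 195.9 and 140.5 in pregnant P4 cells and 107 and 136.7 in virgin P4 cells. By scanner log ratio, Oxtr was called between pregnant P4 and P6 (2.97, adjusted p = 0.0464) but not between pregnant P4 and P5 (1.82, adjusted p = 0.139).

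None of the 10 genes was called for the pregnancy effect in P4 cells by limma (pregnant minus virgin, where 3.75% of all genes were called). An unadjusted p under 0.05 was found for 2, Oxtr and Actg2, and for 15.6% of all genes, a share near that of the members. Oxtr was 1.27 ± 0.36 higher in pregnant P4 cells (adjusted p = 0.114, unadjusted p = 0.00764), and the 2 pregnant arrays lay above both virgin arrays. Actg2 was 1.22 ± 0.44 higher (adjusted p = 0.209) and also did not overlap, and Synm was 1.02 ± 0.61 higher (adjusted p = 0.501) with overlapping arrays. In all, 3 of the 10 genes had separate arrays (Oxtr, Actg2 and Des), as did 47.6% of all genes. For the saturated genes the fitted difference carries the bound of replicate 1, as in Acta2 (at least 1.90 and 5.98 in pregnant P4 cells, against 4.41 and 4.11 in virgin P4 cells, a difference of -0.32 ± 1.07, adjusted p = 0.933). Over the 10 genes the median was 0.17, against -0.03 over all genes.

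Other values rest less on the saturated array. On slide 2, which held pregnant and virgin P4 replicate 2 side by side, all 10 genes were higher in the pregnant cells, where 49% of all genes were, and 8 of the 10 were higher by at least 1 on the log2 scale, where 2.9% of all genes were. Synm was 2.22 higher, Myl9 1.93, Acta2 1.86, Actg2 1.81, Mylk 1.75, Oxtr 1.55, Cnn1 1.20 and Tagln 1.17, while Myh11 was 0.77 and Des 0.09. This is 1 array against 1, with no test, and the Acta2 value includes the 2 saturated spots. Of the probes never saturated on either pregnant P4 array, the flat Mylk probe and 8 others passed the filter on low signal. All 8 were higher on both pregnant arrays than the virgin mean, while the Mylk probe was 0.07 on replicate 1 and -0.02 on replicate 2. Some of the 8 were barely higher: the Tagln probe by 0.05 on replicate 1, and the Des probe by 0.10 and 0.12. The share of all probes higher on both arrays was not counted. The 8 probes belong to 5 genes (Acta2, Tagln, Synm, Des and Oxtr), and Actg2, Cnn1, Myl9 and Myh11 have no such probe.

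When each probe was tested on its own (34803 probes), 3 of the probes of these genes were called for the pregnancy effect in P4 cells, where 3.11% of all probes were called and 1.29% were higher. They were an Acta2 probe at chr19:33941939-33941997 in mm7 (1.68 ± 0.18, adjusted p = 0.00343), a Synm probe at chr7:63586458-63586517 (1.77 ± 0.37, adjusted p = 0.0429) and the Oxtr probe whose letters are given above (1.30 ± 0.15, adjusted p = 0.00584). The other Acta2 probe that was never saturated was 1.14 ± 0.57 higher (adjusted p = 0.42), and the unsaturated Tagln probe 0.60 ± 0.58 (adjusted p = 0.717). The brighter Oxtr probe, used above, was 1.27 ± 0.36 (adjusted p = 0.122 among probes). For Acta2, Synm and Oxtr the called probe was not the brightest of its gene.

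**Figure D3:**
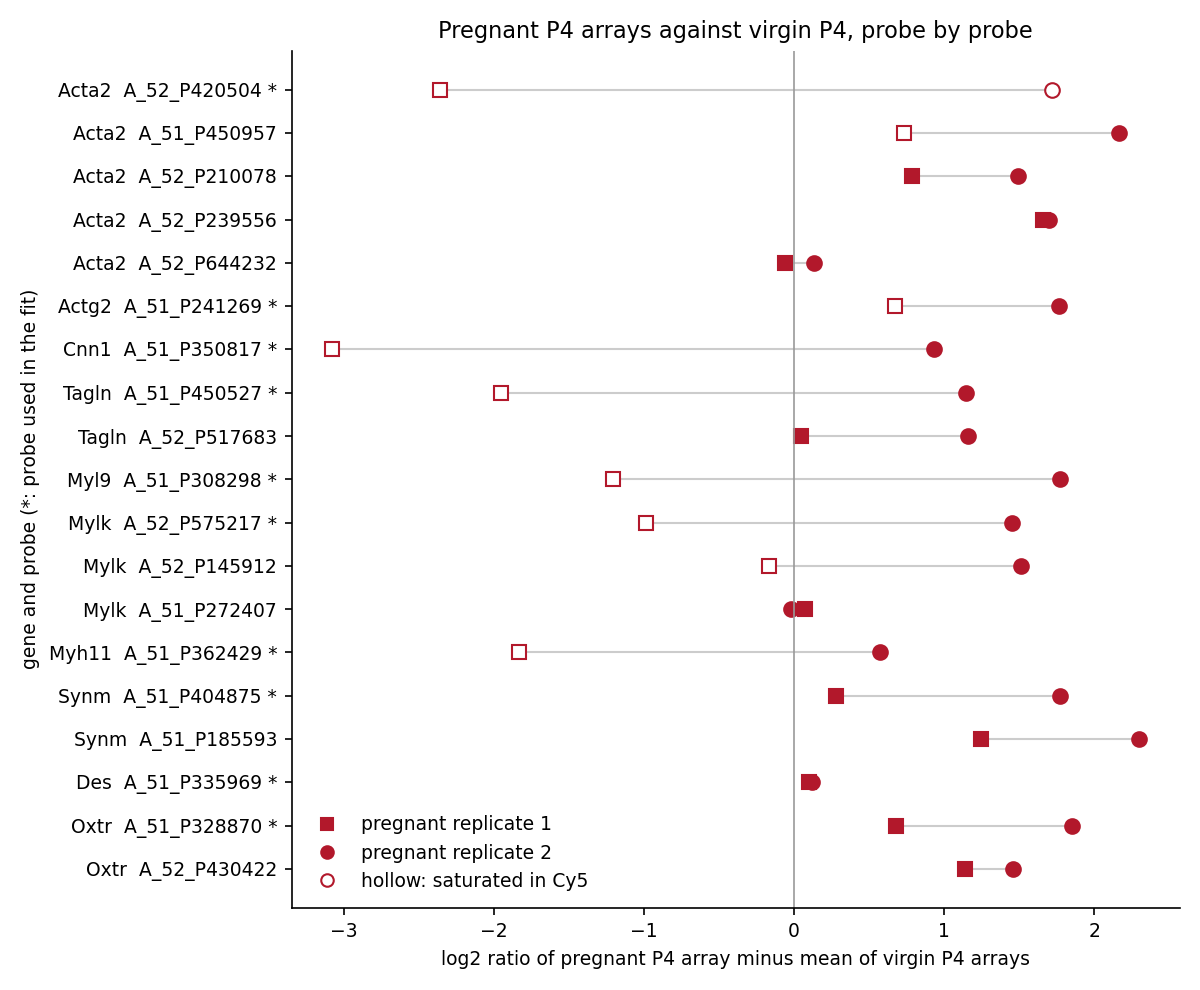
Log2 ratio of each probe of the 10 genes on each of the 2 pregnant P4 arrays minus the mean of the virgin P4 arrays, with squares for replicate 1, circles for replicate 2 and hollow points where saturated. Probes saturated on replicate 1 fall below replicate 2 by at least 1.09, and the gaps of the other probes run from -0.09 to 1.49.

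The Oxtr difference between pregnant and virgin P4 cells moved with the channel used. The Cy3 reference RNA was the same on all arrays, yet its Oxtr intensity was 148.1 and 84.39 on the pregnant P4 arrays, against 28.73 to 49.89 (median 33.4) on the other 12. Myh11 had Cy3 intensities of 1280 and 955.4 on the pregnant P4 arrays and 51.43 to 355.9 on the others. Mylk (2162 and 1602, against 279.2 to 1175) and Synm (305.6 and 259.7, against 80.79 to 247.2) were also higher there. Acta2 (8425 and 10070, against 11310 to 15420), Tagln (2823 and 4012, against 5177 to 10320) and Myl9 (2657 and 3286, against 3997 to 6556) were lower there. Each ratio of pregnant P4 cells includes such a difference. In virgin P4 cells Cy3 intensity was 232.2 and 355.9 for Myh11, against 51.43 and 57.76 in virgin P5 cells. For Cnn1 it was 908.8 and 1291, against 403.5 and 448.5. For Tagln it was lower, 5177 and 5297 against 10140 and 8963. For Acta2 it overlapped, 11830 and 13370 against 12780 and 11880. Ratios of virgin P4 cells thus include such a difference for some genes too. By Cy5 alone, an alternative chosen after seeing the data, Oxtr was 2.61 ± 0.26 higher in pregnant P4 cells (adjusted p = 0.00108) and Synm 1.97 ± 0.39 higher (adjusted p = 0.0246), and these were the 2 genes called. By the scanner log ratio Oxtr was -0.47 (adjusted p = 0.85). The direction of the Oxtr pregnancy effect in P4 thus differed between these treatments, and neither the cause of that nor the source of the Cy3 difference was tested. Without pregnant P4 replicate 1, with the other array alone in its group, Oxtr was 1.85 higher. With slide as a block in limma it was 1.64 higher (adjusted p = 0.00684). Only slide 2 held both pregnant and virgin arrays, so that value rests on its 1 pregnant array, pregnant P4 replicate 2.

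In P5 cells, Mylk alone was called for the pregnancy effect (1 of 10, where 21.4% of all genes were called and 10.7% were higher). Its log2 ratios were 2.89 and 1.21 in pregnant P5 cells, against -0.64 and -1.41 in virgin P5 cells, a difference of 3.08 ± 0.79 (8.43-fold, adjusted p = 0.0259). The groups did not overlap, and another Mylk probe gave 3.20 ± 0.72 (adjusted p = 0.0162 among probes). Myh11 was 2.48 ± 0.81 higher (adjusted p = 0.0627), Cnn1 2.45 ± 1.06 (adjusted p = 0.147), Myl9 2.19 ± 0.83 (adjusted p = 0.102), Acta2 1.97 ± 1.07 (adjusted p = 0.245) and Tagln 1.73 ± 0.86 (adjusted p = 0.203). These 5 did not pass, although in all 10 genes the pregnant and virgin P5 arrays did not overlap, as in 61.9% of all genes. Their SE rests on the spread shared by all replicated groups, with the saturated pregnant P4 array among them. Oxtr (-0.28 ± 0.36, adjusted p = 0.662) and Des (-0.86 ± 0.44, adjusted p = 0.214) had the opposite sign. The count was 6 when either pregnant P4 array was left out and 0 without either virgin P5 array or pregnant P5 replicate 1. In the fit of the 4 P5 arrays alone it was 6, where 14.1% of all genes were called. It was 2 when arrays were blocked by replicate number across conditions. The share over all genes in the fits with 1 array left out is not given here, so those counts stand without a background.

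In P6 cells none of the 10 genes was called for the pregnancy effect by limma (where 0.186% of all genes were called). An unadjusted p under 0.05 was found for 0 of the 10 and for 7.4% of all genes. The differences ran from -1.09 to 0.03, and no gene had separate pregnant and virgin arrays, where 30% of all genes did.

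Whether pregnancy acted differently on P4 and P5 was tested as the difference between both effects. None of the 10 genes was called by limma (8.03% of all genes were), and 4 had an unadjusted p under 0.05, as did 23% of all genes. Oxtr had the positive difference, 1.54 ± 0.51 (adjusted p = 0.113), with opposite signs of the effect in P4 and P5. Myh11 (-3.11 ± 1.15, adjusted p = 0.148), Mylk (-2.84, adjusted p = 0.172) and Cnn1 (-3.52, adjusted p = 0.207) were negative, and all 3 carry the saturated array in pregnant P4. Blocking by replicate number within each condition gave calls for Oxtr and Myh11 (2 of 10, where 26.4% of all genes were called). Without pregnant P4 replicate 1, with 1 array left in that group, the Oxtr difference was 2.13. Without pregnant P4 replicate 2, only the saturated array was left in that group. The difference was then -5.53 for Cnn1, -4.33 for Acta2, -4.31 for Myh11, -4.06 for Mylk, -3.685 for Tagln and -3.39 for Myl9. These 6 genes were saturated on that array, so their values are lower bounds. Between P4 and P6 none was called (0.296% of all genes were), with 1 unadjusted p under 0.05, where 7.62% of all genes had one.

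The GFP sort is the other way in which stem cells were enriched, and its 2 arrays have no replicate. GFPhi cells were at least 2-fold above GFPlo cells in 9 of the 10 genes, where 3.35% of all genes were, and the median over the 10 genes was 3.11 on the log2 scale against 0.01 over all genes. Cnn1 had log2 ratios of 7.31 in GFPhi and 2.39 in GFPlo cells (30.3-fold), Synm 5.65 and 0.85 (27.8-fold), Tagln 4.06 and -0.23 (19.6-fold) and Acta2 3.44 and -0.63 (16.8-fold). Myh11 had a 9.29-fold, Mylk an 8.08-fold, Myl9 a 7.78-fold and Actg2 a 3.34-fold difference. Des was again the exception, at -0.88 in GFPhi and -0.65 in GFPlo cells. Oxtr had a log2 ratio of 2.14 in GFPhi cells and was not well above background in GFPlo cells, which puts GFPhi at least 3.52-fold higher in Cy5. Markers of other cells also differed between these 2 arrays: the mean log2 ratio was 6.46 in GFPhi and 2.84 in GFPlo cells over the 5 basal epithelial markers, 1.85 and 5.04 over the 7 fibroblast markers and 2.46 and 0.78 over the 8 skeletal muscle markers, and their part in the result was not tested.

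Over both sorting methods, virgin enriched cells (P4 and GFPhi, 3 arrays) exceeded virgin depleted cells (P5, P6 and GFPlo, 5 arrays) in 7 of the 10 genes by limma, where 1.62% of all genes were called and 1.52% were higher. The 7 were Cnn1 (5.31 ± 0.76, adjusted p = 0.00314), Tagln (5.03, adjusted p = 0.0031), Acta2 (4.67, adjusted p = 0.00849), Synm (4.11, adjusted p = 0.0016), Mylk (3.96, adjusted p = 0.0226), Actg2 (2.36, adjusted p = 0.0307) and Oxtr (2.31 ± 0.41, adjusted p = 0.0113). Myl9 was 4.11 (adjusted p = 0.0809) and Myh11 3.40 (adjusted p = 0.0552), and in both every enriched array lay above every depleted one. In all, 9 of the 10 genes had separate arrays in this comparison, against 8.58% of all genes. Without virgin P4 replicate 1 or 2 the count was 3, with Acta2, Actg2, Mylk and Oxtr lost.

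The genes that act with these 10 were described from lists chosen with earlier results of these data known. Among 14 other thin filament and actin-linked genes, 14 rose in pregnant P4 relative to P5 cells (median 3.77) and 13 in virgin P4 relative to P5 cells (median 2.85), with none lower, where 11.7% of all genes rose in pregnant and 6.56% in virgin cells. Among them in virgin cells were Tpm2, a tropomyosin (5.82, adjusted p = 0.00133), and Cald1, caldesmon (4.70, adjusted p = 0.0161). Against P6, 12 of the 14 rose in pregnant P4 cells (median 2.88) and 8 in virgin P4 cells (median 2.01), where 6.2% and 4.88% of all genes rose. Their mean log2 ratio was 2.93 and 3.61 on the pregnant P4 arrays and 2.75 and 2.55 on the virgin P4 arrays, against -0.66 to 0.88 on the P5 and P6 arrays. Only Vcl, vinculin of cell adhesions, was called for the pregnancy effect in P4 (1.50, adjusted p = 0.0456 by limma), where 3.75% of all genes were.

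Of 11 genes of nonmuscle myosin and of myosin regulation, 6 rose in P4 relative to P5 in pregnant cells (median 1.59) and 6 in virgin cells (median 1.45). Over all genes 11.7% rose in pregnant and 6.56% in virgin cells. The widest differences lay in myosin phosphatase, which reverses what the Mylk kinase does. Ppp1r12b, a targeting subunit, was 4.64 higher in pregnant P4 than P5 cells (adjusted p = 6.68e-05) and 2.48 higher in virgin ones (adjusted p = 0.00156). Ppp1r12a, the other targeting subunit, was 4.37 higher in pregnant P4 than P5 cells (adjusted p = 5.18e-05), and Ppp1r14a, an inhibitor of the phosphatase, 3.44 (adjusted p = 0.00365). Both targeting subunits were also called for the pregnancy effect in P4, Ppp1r12b at 2.18 ± 0.32 (adjusted p = 0.0109) and Ppp1r12a at 1.35 (adjusted p = 0.0379), while Myh9, a nonmuscle myosin heavy chain, fell by 1.50 on the log2 scale (adjusted p = 0.0259). Relative to P6, 4 of the 11 rose in pregnant and 3 in virgin P4 cells, where 6.2% and 4.88% of all genes rose.

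Of 17 genes that carry the oxytocin signal or handle calcium, 8 rose and 1 fell in pregnant P4 relative to P5 cells (median 0.65). There 11.7% of all genes rose and 22.6% were called in either direction. In virgin cells 2 of the 17 rose (median 0.46), where 6.56% of all genes rose and 11.4% were called in either direction, a share near that of the list. Atp2a2, the calcium pump of the sarcoplasmic reticulum, was 3.63 higher in pregnant P4 than P5 cells (adjusted p = 7.48e-05) and 2.03 higher in virgin ones (adjusted p = 0.00153). Rgs2, which dampens Gq signalling, was 3.78 higher in pregnant P4 than P5 cells (adjusted p = 0.000705), and Plcb1, a phospholipase C that Gq activates, 2.30 (adjusted p = 0.0376). Orai1, a calcium channel of the plasma membrane, fell by 2.16 on the log2 scale (adjusted p = 0.00157). Kcnmb1, the smooth muscle subunit of the large calcium-activated potassium channel, was the 1 gene of the 17 called for the pregnancy effect in P4 (0.93 ± 0.14, adjusted p = 0.0128 by limma). Of all genes 3.75% were called there. Of oxytocin itself and the 3 vasopressin receptor genes, Avpr1a was 1.05 higher in virgin P4 than P5 cells (adjusted p = 0.0116) and fell by 1.24 in virgin P4 relative to P6 cells (adjusted p = 0.00503), and the pregnant comparison with P5 called none by limma.

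Of serum response factor and 4 related genes, 3 rose in P4 relative to P5 in each condition, where 11.7% of all genes rose in pregnant and 6.56% in virgin cells. Srf was 2.88 higher in pregnant P4 than P5 cells (adjusted p = 1.7e-05) and 1.63 higher in virgin ones (adjusted p = 0.000137). Mrtfa, an actin-sensing cofactor of serum response factor, was 2.29 higher in pregnant (adjusted p = 0.000373) and 0.98 higher in virgin cells (adjusted p = 0.0344), and Nexn, nexilin, an actin-binding protein, was 4.16 higher in pregnant (adjusted p = 0.000146) and 4.48 higher in virgin cells (adjusted p = 0.000138). Myocd, the cofactor known from cardiac and smooth muscle, was -0.11 in pregnant (adjusted p = 0.694) and -0.05 in virgin cells (adjusted p = 0.953), and is named after its values were seen.

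**Figure D4:**
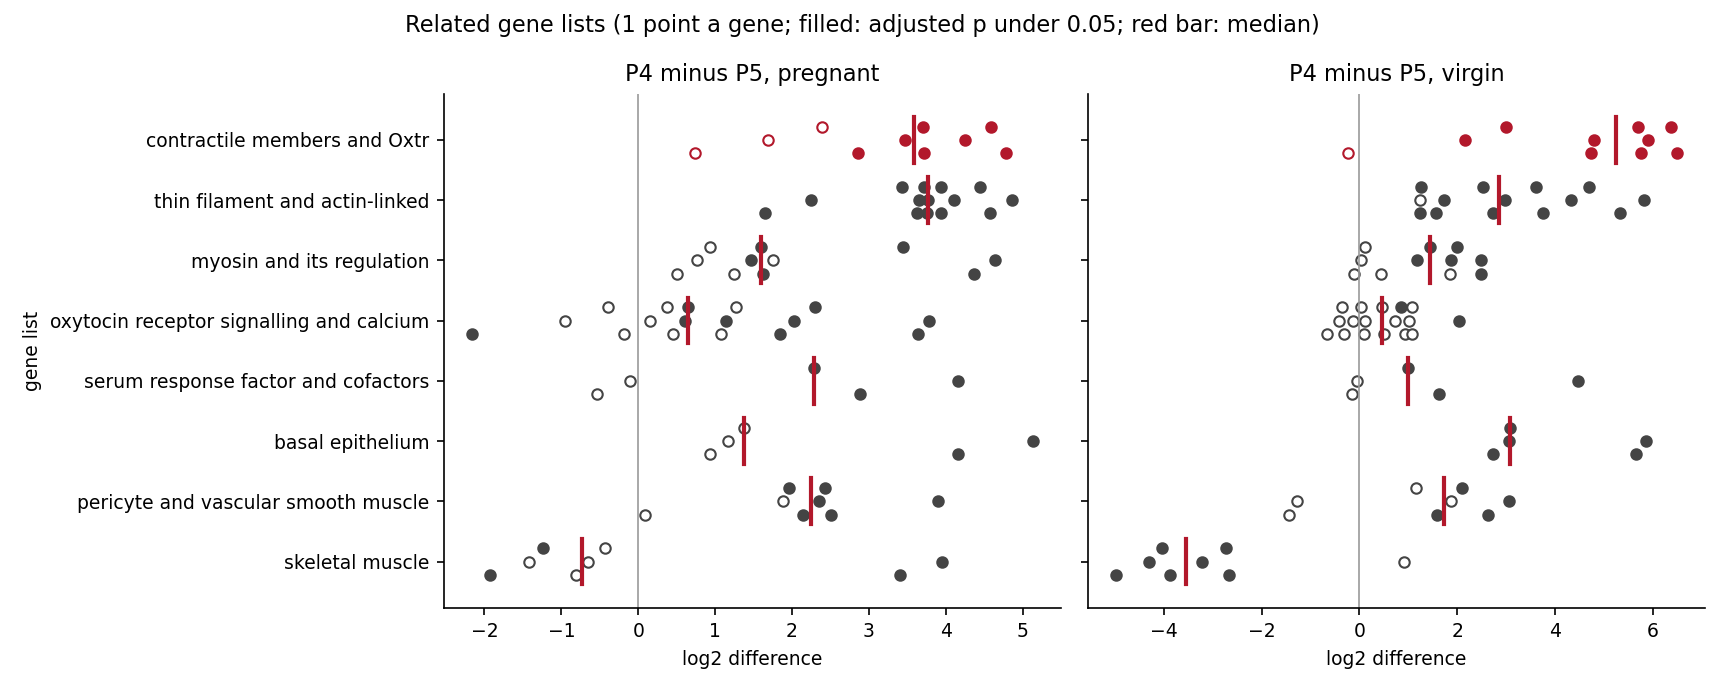
Log2 difference of P4 from P5 for each gene of the 10, of the related lists and of 3 marker lists, in pregnant (left) and virgin (right) mice, with 1 point a gene, filled where the adjusted p was under 0.05, and a red bar at the list's median. All thin filament points lie to the positive side, with medians of 3.77 in pregnant and 2.85 in virgin cells. The skeletal muscle medians are negative, although Acta1 (3.95) and Tnni2 (3.41) rose in pregnant P4 cells, where 2 other genes of that list fell.

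Markers of other cells moved along with some of these comparisons. The basal epithelial list (Trp63, Krt5, Krt14, Krt17 and Col17a1) rose in virgin P4 relative to P5 cells in 5 of 5 genes, where 6.56% of all genes rose. In pregnant cells 2 of 5 rose, where 11.7% of all genes did. The mean log2 ratio of the basal list was 3.90 and 5.41 on the pregnant P4 arrays, 5.66 and 5.32 on the virgin P4 arrays, 6.46 in GFPhi and 1.06 to 2.84 on the other arrays. Of 8 pericyte and vascular smooth muscle markers, 6 rose in pregnant and 4 in virgin P4 relative to P5 cells, where 11.7% and 6.56% of all genes rose. Among them were Mcam (3.90 in pregnant and 3.07 in virgin cells), Cspg4 (2.51 and 1.59), Kcnj8 (2.43 and 2.10) and Pdgfrb (2.35 and 2.62). In virgin cells Notch3 (-1.27, adjusted p = 0.305 by limma) and Anpep (-1.44, adjusted p = 0.086) had the opposite sign and were not called. Relative to P6, Pdgfrb fell by 3.59 in virgin P4 cells (adjusted p = 0.000113 by limma). In pregnant P4 minus P6, Pdgfrb was -3.84 (adjusted p = 6.15e-05) and Mcam 2.92 (adjusted p = 0.00672). The pericyte list's mean was 2.04 and 2.68 on the pregnant P4 arrays and 2.06 and 1.84 on the virgin P4 arrays, against 0.13 to 0.78 on the P5 arrays. On the P6 arrays it was 2.16 and 3.64 in pregnant cells, overlapping P4, and 3.16 and 3.1 in virgin cells, above P4. Endothelial markers averaged 2.55 to 3.76 on the P4 arrays, against 1.16 to 1.42 on the P5 arrays and 0.97 to 2.33 on the P6 arrays. Every marker of these 3 lists was well above background on the 4 P4 arrays. Between the GFP arrays the pericyte list ran the other way, at 2.26 in GFPhi and 3.19 in GFPlo cells. The part of each cell type in the contractile differences was not tested.

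The P5 cells carried skeletal muscle markers as well, but some of these were as high in other cells. Acta1 had log2 ratios of 3.43 to 5.09 on the P4 arrays, against -0.03 to 2.85 on the P5 arrays. Myh4 had 4.42 and 4.88 in virgin P6 cells, against 5.08 and 4.83 in virgin P5 cells. Tnni2 had 3.79 and 4.31 in pregnant P4 cells, against 1.01 and 0.27 in pregnant P5 cells. In pregnant P4 relative to P5 cells 2 genes of the list rose (Acta1 and Tnni2) and 2 fell. All 8 genes of that list fell in pregnant relative to virgin P5 cells (median -2.71), with a list mean of 1.02 and -0.02 on the pregnant and 3.27 and 3.13 on the virgin P5 arrays, and 7 of 9 luminal markers fell with them (median -2.80). Over all genes 21.4% were called for this effect and 10.7% were higher. Of the 10 genes, 1 (Mylk) rose in pregnant relative to virgin P5 cells and none fell, and their median was 1.85. Fibroblast markers, of which all 7 fell in P4 relative to P6 in both conditions, averaged 4.10 to 5.98 on the P6 arrays and -1.68 to -0.63 on the P4 and P5 arrays. Between P4 and P6, 12.1% of all genes were called in pregnant and 10.3% in virgin cells. Whether either cell type bears on the levels of the 10 genes in P5 or P6 was not tested.

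Across all 14 arrays, 9 of the 10 genes moved together. The 36 pairs without Des had Pearson correlations of 0.702 to 0.989 (median 0.913), whereas Des correlated with the others at -0.203 to 0.09. These are descriptions over 14 arrays that share the reference RNA and fall into few populations. The genes whose pattern was most like that of Acta2 among 17921 genes were Tpm2 (r = 0.977), Actc1, the cardiac actin (0.970), Fhod3, a formin (0.947), Irx4 (0.945) and Rflna (0.937). Those most like Oxtr were Phyhip (0.983), Actn1, alpha-actinin (0.980), Eppk1 (0.970), Fgfrl1 (0.970) and Plcxd1 (0.969). Those most like Des were Myom1, a sarcomere protein (0.896), Dzip1l (0.839), Carns1 (0.808), Zfp300 (0.805) and Ptprv (0.789).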

How the data were processed

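Cy5 intensity of sorted mammary cells and Cy3 intensity of a common reference RNA were deposited by the authors per spot, with local backgrounds, from Agilent Feature Extraction, version 9.5.3.1 per the submitters' processing notes. The deposited log10 ratio of Cy5 over Cy3 was made by the scanner software after its own background subtraction and dye normalization, per the file headers. The deposited series table holds log2 ratios, which matched that scanner ratio with no centring of the arrays, so it served only as an alternative. Dyes were not swapped, so a dye effect is shared by all arrays and cancels in differences between groups only where it is equal on them.

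The values here were computed in R 4.3.3 with limma 3.58.1. Outlying local backgrounds were replaced by the array's median, a step chosen after seeing the data, background was corrected by normexp (offset 50), and ratios were normalized by loess. Outlier spots were left out, spots of a probe were averaged, and 34805 probes were kept whose Cy5 signal was flagged well above background throughout at least 1 replicated group. One probe per gene, the brightest, entered lmFit and eBayes. A model of 6 groups (12 arrays, 6 residual degrees of freedom) gave the comparisons of populations and conditions, and a model of enriched and depleted cells (14 arrays, 10 residual degrees of freedom) gave the class comparison. P-values were adjusted by Benjamini-Hochberg over all 23647 genes and called under 0.05. The 2 GFP arrays have no replicate, so their difference has no test. The code was tested on simulated data.

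Arrays of equal replicate number within a condition, which shared a scan, deviated together (correlations of 0.304 to 0.688 over 6 pairs), and across conditions they did not (-0.208 to 0.146 over 9 pairs), so blocked results are given within a condition where they change a count. The 5 slides and 3 scans were tried as blocks. The 10 genes and all lists were chosen with earlier results of these data known. The rule for named genes took all 10, and from each list up to 3 called genes per direction with the largest difference. One list gene that the rule took and 1 probe sequence are not reported here. Alternatives to the normalization, filter, probe choice, model and arrays are given at the end.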

Additional observations from a re-analysis of the deposited data

Results flagged for a closer look

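Of the 4 values that stood apart within their group by Dixon's test, none was in a P4 or GFPhi array. Des had a log2 ratio of 0.532 on virgin P6 replicate 2, above the other 4 virgin depleted arrays. Actg2 had 0.326 on pregnant P5 replicate 1, above the other 3 pregnant depleted arrays, while Tagln (-0.757) and Myh11 (2.051) on pregnant P6 replicate 1 lay below the other 3. Chance alone gives such a value in some of the groups examined. Des and Oxtr had opposite directions of the pregnancy effect in P4 and P5 on every array. Des was 0.111 in P4 and -0.861 in P5, and Oxtr was 1.266 in P4 and -0.277 in P5. The difference between both effects was 0.97 for Des (adjusted p = 0.412, limma) and 1.54 for Oxtr (adjusted p = 0.113, limma), so neither passed.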

How the results depend on the processing

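Counts of the 10 genes called in P4 minus P5 of virgin mice (9) and in the class comparison (7) stayed within 1.5 times under every alternative that kept all arrays, and ranged from 7 to 9 and from 3 to 8 when 1 array was left out. In P4 minus P6 of virgin mice the count of 7 became 4 with median centring and 2 to 8 with 1 array left out. In P4 minus P5 (7) and P4 minus P6 (7) of pregnant mice it became 3 in each when only the groups compared were fitted, and 5 to 9 and 4 to 9 with 1 array left out. In P5 minus P6 of virgin mice the count of 1 became 2 with the scanner ratio, the filter in Cy3 too or the mean of probes, 3 with only the groups compared, 4 with the series table, 5 without scan 3, 6 with scan or the replicate number as a block, 7 with slide as a block, and 0 to 6 with 1 array left out. In P5 minus P6 of pregnant mice the count of 0 became 1 without scan 3 and 2 with slide as a block, and it was 0 to 0 with 1 array left out. For the pregnancy effect in P5 the count of 1 became 0 with median centring or backgrounds as given, 2 with the replicate block across conditions, 5 with the series table or without scan 3, 6 with scan as a block or only the groups compared, 7 with slide as a block, and 0 to 6 with 1 array left out. For the pregnancy effect in P4 the count of 0 became 1 with the mean of probes or the replicate block across conditions, 2 with slide as a block or Cy5 alone, and 0 to 1 with 1 array left out. For the effect in P4 minus that in P5 the count of 0 became 1 with mean of probes or the replicate block across conditions. It became 2 with scan as a block or the replicate block within each condition, and 7 with slide as a block. With 1 array left out, the difference ranged from -4.329 to -0.256 for Acta2 and from 0.955 to 2.131 for Oxtr. The lowest Acta2 value came from the fit that kept only the saturated pregnant P4 array in its group. The replicate block changed no other count by over 1.5 times. Calls over all genes moved with the setting too, and the counts of the 10 are to be read beside them. With scan as a block they went from 5054 to 8392 for the pregnancy effect in P5, and from 1898 to 6239 for the effect in P4 minus that in P5. With the replicate block within each condition they went from 3816 to 6859 in P5 minus P6 of virgin mice. No other alternative, slide as a block included, gave more calls over all genes in these comparisons. For most other counts of the 10 above, the calls over all genes in the same setting are not given here. The cause of these changes was not tested. Only slide 2 held both pregnant and virgin arrays, through pregnant P4 replicate 2. With slide as a block, each pregnancy effect therefore rests on that 1 array as the link between the conditions. By design, the fits of only the groups compared hold fewer arrays and take no spread from other groups. The main fit takes it from all replicated groups, with the saturated pregnant P4 array among them.

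Of the genes followed through every alternative (those called in a comparison, and all 10 for the pregnancy effect in P4), signs turned only in the pregnancy effect in P4. Genes that were not called turned in other comparisons too, as Mylk in P5 minus P6 of pregnant mice, at 0.42 over all arrays and -0.31 within scan 2, and Des in P4 minus P6 of pregnant mice, at 0.00 and -0.51. Acta2, Cnn1, Tagln and Myh11 became 1.715, 0.930, 1.143 and 0.575 without scan 3 or without pregnant P4 replicate 1, and Cnn1, Tagln and Myh11 had the same values with saturated spots left out. They became 1.842, 0.901, 1.252 and 0.360 in the series table, where the saturated probes are missing on that array, and 1.602, 1.267, 1.015 and 0.418 with slide as a block. Acta2 and Tagln became 0.986 and 0.099 with the mean of probes, and 1.137 and 0.603 with the brightest probe never saturated. With scan as a block Acta2, Cnn1 and Tagln became 0.305, 0.033 and 0.245. Myh11 became 1.623 with Cy5 alone. Oxtr became -0.469 with the scanner ratio and in the series table. Des became -0.151 with slide as a block, -0.038 with scan as a block and -0.002 with Cy5 alone. Mylk became -0.064 without virgin P4 replicate 2 and -0.984 without pregnant P4 replicate 2, and Myl9 became -1.204 without that array. Over all fits that left out 1 array, Acta2 ranged from -2.358 to 1.715, Cnn1 from -3.078 to 0.930, Tagln from -1.953 to 1.143, Myl9 from -1.204 to 1.771, Mylk from -0.984 to 1.449 and Myh11 from -1.832 to 0.575.

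Over all genes, calls ranged from 1287 with median centring to 5734 with the replicate block in P4 minus P5 of virgin mice (2688), from 1024 to 5167 in P4 minus P6 of virgin mice (2441), from 2405 to 9751 in P4 minus P5 of pregnant mice (5338), from 917 to 5774 in P4 minus P6 of pregnant mice (2854), from 0 to 1753 for the pregnancy effect in P4 (886) and from 2420 to 8392 for that in P5 (5054). Median centring put the higher share of calls at 77.4% in place of 51.6% in P4 minus P5 of pregnant mice, 69.9% in place of 51.4% in P4 minus P6 of pregnant mice, 42.9% in place of 57.7% in P4 minus P5 of virgin mice, 56.3% in place of 39.8% for the pregnancy effect in P4 and 27.8% in place of 50.1% for that in P5. It also put the median of all genes for the effect in P4 minus that in P5 at 0.22 in place of -0.09. The alternatives on saturation and Cy5 alone were chosen after seeing the data. Signal limits Oxtr most, which was near background in the reference on most arrays. It also limits Des, whose only probe reached at most 432.2 in Cy5 intensity.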
